A study of Rattus norvegicus with 12 samples.

Results

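Timp1, a secreted inhibitor of matrix metalloproteinases, and 3 matrix metalloproteinases, Mmp2, Mmp9 and Mmp14, were followed in the lungs of rats given bleomycin, with and without nintedanib. The 4 genes were taken from the table of counts by their Ensembl identifiers, ENSRNOG00000010208 for Timp1, ENSRNOG00000016695 for Mmp2, ENSRNOG00000017539 for Mmp9 and ENSRNOG00000010947 for Mmp14, out of 32623 identifiers in all. The names come with that definition, since the table itself holds identifiers without names. All 4 had reads and passed the filter on low counts, which left 14956 genes for testing.

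Matrix metalloproteinases are zinc-dependent enzymes that cut components of the extracellular matrix. Mmp2 and Mmp9 are the gelatinases, which act on denatured collagen and on the collagen of basement membranes. Mmp14 is anchored in the plasma membrane, cuts fibrillar collagen and activates the proenzyme of Mmp2. Timp1 binds the active site of most secreted metalloproteinases, among them Mmp9, and is a weak inhibitor of Mmp14. In lung, fibroblasts are a known source of Mmp2, and neutrophils and macrophages are known sources of Mmp9. Messenger RNA is a measure of neither protein nor enzyme activity.

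The animals were male Sprague Dawley rats, and each of the 12 libraries came from the homogenised right lung of 1 animal, 4 per group. Rats of the saline group (SAL) received saline solution into the trachea on day 0 and day 4, and rats of the bleomycin group (BLM) received bleomycin at 1 U/kg on the same days. From day 7 both groups were dosed by mouth every day with the vehicle, methylcellulose, for 3 weeks. Rats of the nintedanib group (NINT) received the same bleomycin and, over the same weeks, oral nintedanib at 100 mg/kg, a tyrosine kinase inhibitor used in pulmonary fibrosis. All lungs were collected on day 28. No group given saline with nintedanib was analysed here, and ages are not given in the labels.

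Total counts lay between 16572004 and 21719946 per library. Expression is given as CPM, the reads of a gene per 1000000 reads of the library, scaled by TMM factors (trimmed mean of M-values). The bleomycin lungs were unlike each other. The root mean square distance in log2 CPM from the mean of the saline lungs was 0.52 in BLM replicate 2, 0.61 in BLM replicate 1, 0.86 in BLM replicate 4 and 1.15 in BLM replicate 3. The NINT lungs lay between 0.48 and 0.58, and each saline lung lay between 0.33 and 0.41 from the mean of the other saline lungs. For the 4 genes, main fold changes and averages that rest on BLM replicate 3 are therefore also given without it. Marker genes of lung cell types were not analysed here, because no identifier apart from the 4 carried a name, so the tissue and its cell makeup were not checked. In a homogenate a change in the number of cells that make a transcript cannot be told apart from a change in the amount per cell.

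Of the 4 genes, only Timp1 had an entry in the RefSeq table of promoters used here (build GRCr8). Its sequence is therefore the only one shown. The 250 bases before the listed start site, on the minus strand at chrX:3771123-3771372, follow in the direction of transcription, with capitals on the stretches that matched a motif.
Timp1 promoter: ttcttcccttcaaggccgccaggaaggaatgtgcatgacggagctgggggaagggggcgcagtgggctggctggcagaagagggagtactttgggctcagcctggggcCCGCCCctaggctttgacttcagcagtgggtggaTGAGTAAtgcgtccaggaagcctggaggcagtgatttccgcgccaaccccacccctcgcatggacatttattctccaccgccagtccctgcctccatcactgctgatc
The first capitals are GGGCGG, the core of the Sp1 motif, on the opposite strand, 142 to 137 bases before the start. The second are TGAGTAA, an AP-1-like motif that differs from the canonical letters, 108 to 102 bases before the start. The canonical AP-1 letters TGACTCA, searched on both strands, are not in this window. Among 33469 RefSeq promoter windows of the same length, 30.5% held GGGCGG, 4.05% held TGACTCA and 2.38% held TGAGTAA on either strand. The search for TGAGTAA was added after the sequence was seen. The RefSeq gene extends 1456 bases further upstream of this start site, so the window is 1 of more than 1 possible promoter region of Timp1.

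The first comparison, BLM against SAL, asked how the 4 genes stood in the lung at day 28 after bleomycin. Timp1, Mmp2 and Mmp14 rose, by 3.69-fold, 2.28-fold and 1.57-fold, and Mmp9 did not pass the test. In edgeR's quasi-likelihood test over all genes, with a call at an adjusted p under 0.05, 40.8% of genes were called in this comparison and 18.3% were called higher in BLM. The count of 3 called genes among 4 stands against that background. The median log2 fold change of the 4 genes was 0.92, against 0.0019 over all genes tested, and 0.66 against 0.025 without BLM replicate 3.

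**Figure D1:**
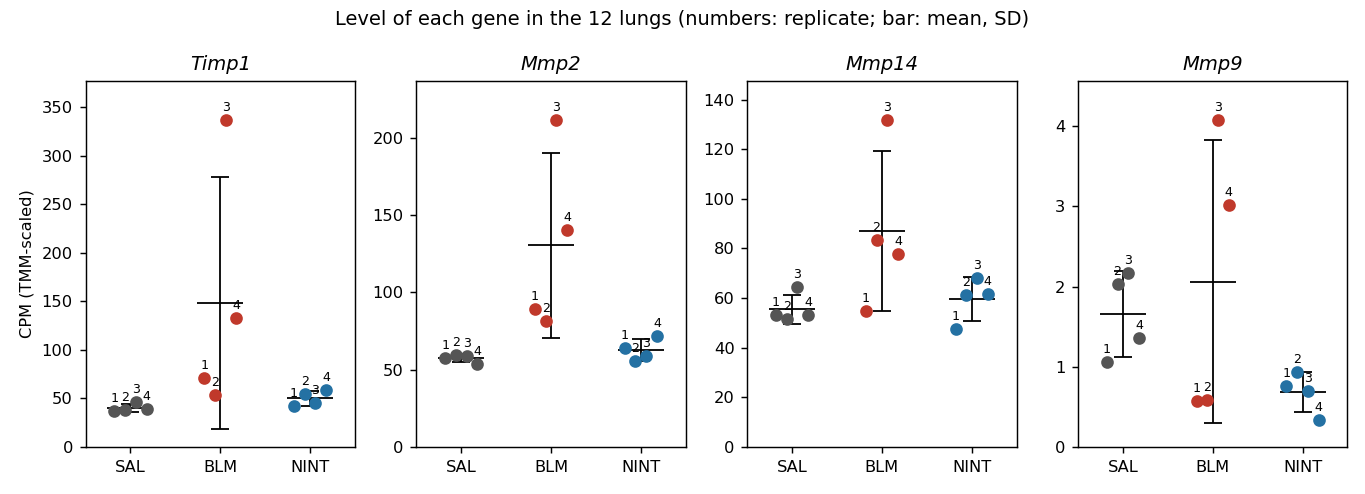
CPM (vertical axis, linear from 0, a scale of its own per gene) of Timp1, Mmp2, Mmp14 and Mmp9 in each lung of the SAL, BLM and NINT groups. Points are lungs marked with their replicate number, and the bars are the mean and SD of 4 lungs. BLM replicate 3 was the highest of the 12 lungs for each of the 4 genes.

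Timp1, the inhibitor, stood at 37.4, 38.2, 46.4 and 38.8 CPM in SAL replicates 1 to 4 and at 70.9, 53.2, 336 and 133 CPM in BLM replicates 1 to 4. All 4 bleomycin lungs lay above all 4 saline lungs, with BLM replicate 2 nearest to them and BLM replicate 3 far above the rest. The log2 fold change was 1.88 (SE 0.44, 95% interval 0.93 to 2.84, edgeR adjusted p = 0.00657), which ranked 101 from the top among the 14956 genes. Without BLM replicate 3 it was 1.14 and still called (edgeR adjusted p = 0.00388). Relative to the mean of the saline lungs, Timp1 was at 1.32-fold in BLM replicate 2, 1.76-fold in BLM replicate 1, 3.31-fold in BLM replicate 4 and 8.37-fold in BLM replicate 3. The bleomycin lungs averaged 148 ± 130 CPM and the saline lungs 40.2 ± 4.15 CPM (SD, n = 4 per group). The bleomycin average without replicate 3 was 85.7 ± 41.9 CPM (SD, n = 3).

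Mmp14, the membrane-bound collagenase and activator of Mmp2, stood at 53.3, 51.6, 64.3 and 53.0 CPM in SAL replicates 1 to 4 and at 55.0, 83.3, 132 and 77.9 CPM in BLM replicates 1 to 4. The groups overlapped, since BLM replicate 1 lay within the saline range, and the other 3 bleomycin lungs lay above it. Mmp14 rose by 0.65 on the log2 scale (SE 0.21, 95% interval 0.20 to 1.10, edgeR adjusted p = 0.0264). Without BLM replicate 3 it was 0.42 (edgeR adjusted p = 0.0421). Mmp14 had the smallest rise of the 3 called genes and the one nearest to the threshold, with an edgeR adjusted p of 0.04998 when the BLM and SAL libraries were fitted without the NINT libraries.

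Mmp2, the gelatinase that Mmp14 activates, had a narrow range in saline lungs, with 57.4, 59.5, 58.6 and 53.7 CPM in SAL replicates 1 to 4. In BLM replicates 1 to 4 it stood at 89.0, 81.2, 211 and 140.4 CPM, so that every bleomycin lung lay above every saline lung. The log2 fold change was 1.19 (SE 0.24, 95% interval 0.67 to 1.70, edgeR adjusted p = 0.00338), and 0.90 without BLM replicate 3 (edgeR adjusted p = 0.00177). Timp1 and Mmp2 were the 2 of the 4 genes whose BLM and SAL lungs did not overlap, and 37.4% of all genes tested had no overlap in this comparison, 16.1% with the bleomycin lungs higher.

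Mmp9, the gelatinase known from neutrophil granules, was a low transcript here, with 6 to 88 reads per library. It stood at 1.05, 2.03, 2.17 and 1.36 CPM in SAL replicates 1 to 4 and at 0.567, 0.586, 4.07 and 3.02 CPM in BLM replicates 1 to 4. BLM replicates 1 and 2 lay below every saline lung and BLM replicates 3 and 4 above every saline lung. This split was wider than Poisson counting error. The exact Poisson 95% intervals were 0.283 to 1.01 CPM in BLM replicate 1 and 0.292 to 1.05 CPM in BLM replicate 2. They were 2.31 to 3.88 CPM in BLM replicate 4 and 3.27 to 5.02 CPM in BLM replicate 3. These intervals treat each read as a separate molecule and cover no other spread. The reads are not counted as separate molecules, so the intervals may be too narrow. The log2 fold change of the group was 0.33 (SE 0.55, 95% interval -0.86 to 1.52, edgeR adjusted p = 0.659), and without BLM replicate 3 it was -0.19 (edgeR adjusted p = 0.796). The difference in mean log2 CPM, which gives each lung the same weight, was -0.11, so the sign also depended on the measure. The group average of 2.06 ± 1.77 CPM (SD, n = 4) lies in a gap where none of the bleomycin lungs stood, and without BLM replicate 3 it was 1.39 ± 1.41 CPM (SD, n = 3).

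**Figure D2:**
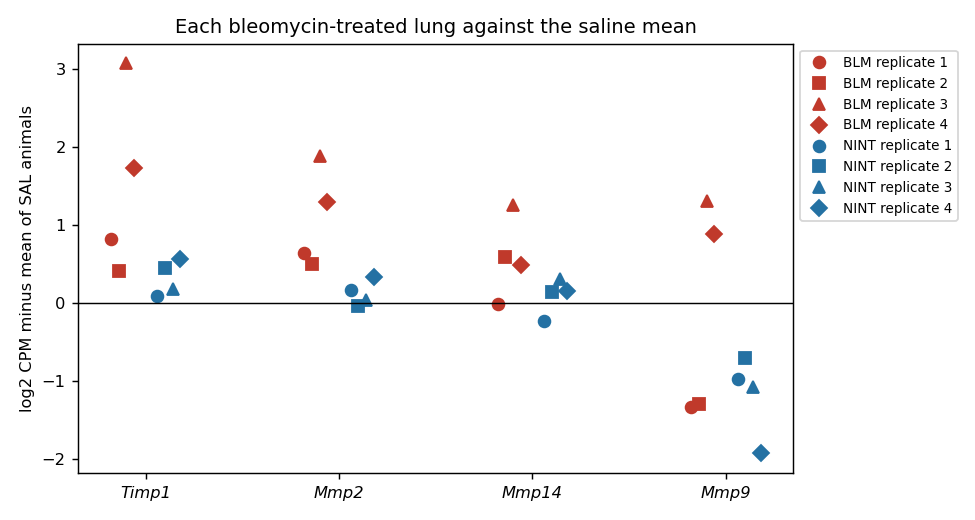
Log2 CPM of each BLM and NINT lung minus the mean of the 4 SAL lungs (vertical axis) for Timp1, Mmp2, Mmp14 and Mmp9. Points are lungs, with the marker shape giving the replicate number, and BLM replicates 1 and 2 are at -1.34 and -1.30 for Mmp9 while BLM replicates 3 and 4 are at 1.30 and 0.88.

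Among the bleomycin lungs the order of levels was replicate 3, 4, 1, 2 for both Timp1 and Mmp2, which is also the order of their distance from the saline lungs over all genes. For Mmp9 replicates 3 and 4 came first as well, but replicates 1 and 2 held 11 reads each. For Mmp14 the order was replicate 3, 2, 4, 1, so that BLM replicate 1, at 1.76-fold of the saline mean for Timp1, was at 0.989-fold for Mmp14. Across the bleomycin lungs the SD of log2 CPM was 1.18 for Timp1, 1.40 for Mmp9, 0.64 for Mmp2 and 0.52 for Mmp14, against a median of 0.26 over all genes tested. By this SD Mmp9 exceeded 98.9% of genes, Timp1 97.3%, Mmp2 84.8% and Mmp14 78.4%. Without BLM replicate 3 the SD was 0.67 for Timp1, 1.27 for Mmp9, 0.42 for Mmp2 and 0.32 for Mmp14, with a median of 0.20 over all genes, and the order of the 4 genes was kept. In saline lungs the SDs were 0.14 for Timp1 and Mmp14 and 0.065 for Mmp2, all under the median of 0.16. The SD of Mmp9 was 0.46 in saline lungs, above 90.8% of genes, and 0.53 in NINT lungs, above 91.9%. Its high rank was therefore not limited to the bleomycin lungs. Poisson counting error alone would give Mmp9 a coefficient of variation of 18.3% in SAL, where 32.3% was observed. In BLM it would give 15.3%, where 85.8% was observed and 101% without replicate 3.

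The second comparison, NINT against BLM, asked how the genes stood when nintedanib was given after bleomycin. Mmp2 fell by 1.06 on the log2 scale, and Timp1, Mmp9 and Mmp14 had lower averages under nintedanib without passing the test. Of all genes, 5.83% were called in this comparison and 3.46% were called lower in NINT, against 1 of the 4 genes here. At an unadjusted p under 0.05 in edgeR all 4 genes passed, as did 28.5% of all genes. The median log2 fold change of the 4 genes was -1.31, against -0.0057 over all genes. Without BLM replicate 3 it was -0.74, against 0.0058 over all genes. This comparison and the first share the BLM animals, so a high bleomycin lung raises the first and lowers the second by the same measurement.

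**Figure D3:**
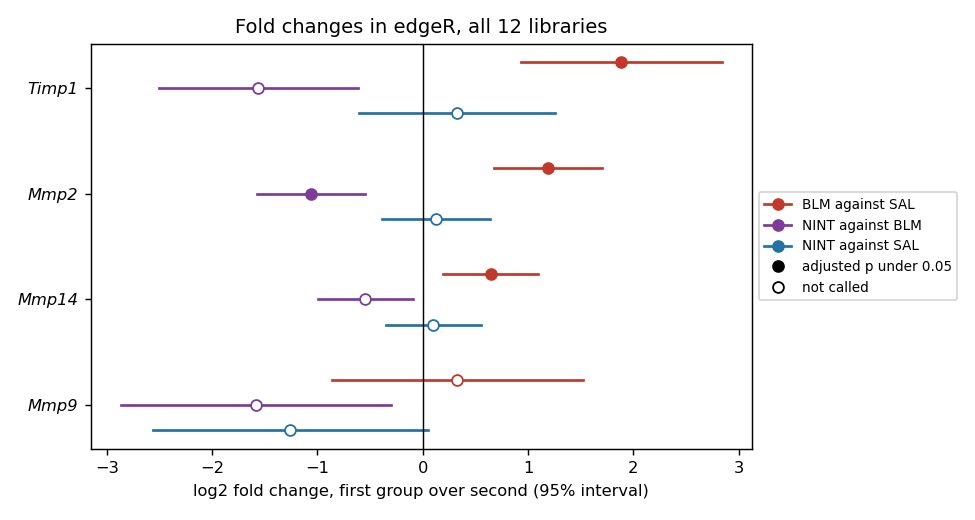
Log2 fold change of the first-named group over the second (horizontal axis) with its 95% interval, for each gene and comparison in edgeR's fit of all 12 libraries. Filled points had an adjusted p under 0.05: Timp1, Mmp2 and Mmp14 in BLM against SAL and Mmp2 in NINT against BLM.

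Mmp2 stood at 64.0, 55.6, 59.1 and 71.9 CPM in NINT replicates 1 to 4. Each of these lungs lay below each bleomycin lung, and it was the only 1 of the 4 genes without overlap between NINT and BLM, as were 16.0% of all genes tested (9.68% with NINT lower). The log2 fold change was -1.06 (SE 0.24, 95% interval -1.57 to -0.55, edgeR adjusted p = 0.0334). Without BLM replicate 3 it was -0.72 and still called (edgeR adjusted p = 0.0432). The call was lost when the NINT and BLM libraries were fitted without the SAL libraries, with a log2 fold change of -1.05 (edgeR adjusted p = 0.103). It was also lost without BLM replicate 4, without SAL replicate 2 or 4, and without any single NINT lung. The log2 fold change was between -1.13 and -1.01 in these 7 fits, with an edgeR adjusted p of up to 0.103. These 7 fits called 17 to 283 genes in all, and the fit of NINT and BLM alone called 28. The fit of all 12 libraries called 872, so most calls were lost along with that of Mmp2.

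Timp1 stood at 42.4, 54.5, 45.4 and 59.0 CPM in NINT replicates 1 to 4, a narrow range that overlapped the bleomycin lungs only through BLM replicate 2, at 53.2 CPM. Its log2 fold change of -1.56 was among the 85 most negative of the 14956 genes, but the spread between bleomycin lungs was large and the test was missed narrowly (SE 0.44, 95% interval -2.50 to -0.62, edgeR adjusted p = 0.0529). The result fell on the other side of the threshold without BLM replicate 2, with a log2 fold change of -1.83 (edgeR adjusted p = 0.0131), and in DESeq2, with -1.54 (DESeq2 adjusted p = 0.0218). Those settings called 2857 and 1960 genes in all, where edgeR's fit of all 12 libraries called 872. Leaving out BLM replicate 3 gave Timp1 a log2 fold change of -0.76 (edgeR adjusted p = 0.0942), in a fit that called 272 genes. The coefficient of variation of Timp1 was 15.4% in NINT and 87.6% in BLM, or 48.8% in BLM without replicate 3.

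Mmp14 stood at 47.4, 61.2, 68.2 and 61.6 CPM in NINT replicates 1 to 4, and 1 of these lungs, replicate 1, lay below every bleomycin lung. On the log2 scale the difference was -0.55 (SE 0.21, 95% interval -0.99 to -0.096, edgeR adjusted p = 0.115), and -0.26 without BLM replicate 3 (edgeR adjusted p = 0.307). BLM replicate 3 was the one bleomycin lung far above the NINT range for this gene.

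Mmp9 stood at 0.755, 0.935, 0.697 and 0.341 CPM in NINT replicates 1 to 4, from 14, 20, 14 and 6 reads. The NINT lungs were near BLM replicates 1 and 2 and well below BLM replicates 3 and 4. Its log2 fold change was -1.58 (SE 0.59, 95% interval -2.87 to -0.30, edgeR adjusted p = 0.109). It was called without BLM replicate 2, with -1.88 (edgeR adjusted p = 0.0330), and was -1.01 without BLM replicate 3 (edgeR adjusted p = 0.301). The fit without BLM replicate 2 called 2857 genes in all, where the fit of all 12 libraries called 872.

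**Figure D4:**
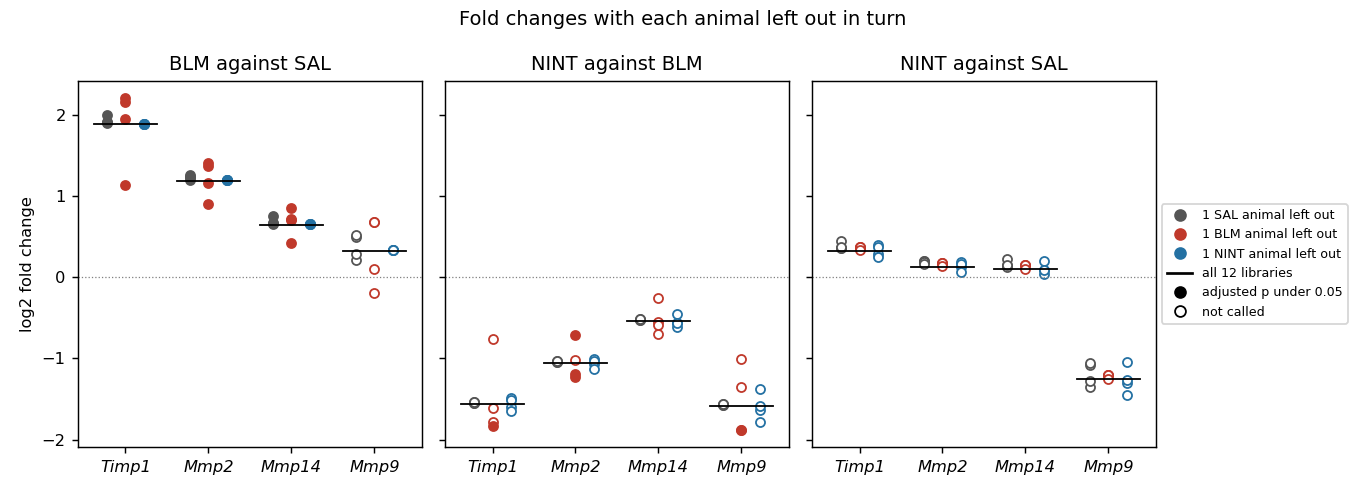
Log2 fold change (vertical axis) of each gene in the 3 comparisons when 1 animal is left out, coloured by the group of the animal, with a line at the value from all 12 libraries. Filled points had an edgeR adjusted p under 0.05, and the red point nearest to 0 for Timp1 and Mmp14 in BLM against SAL, at 1.14 and 0.42, is the fit without BLM replicate 3.

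The third comparison, NINT against SAL, asked what remained different from saline lungs after bleomycin with nintedanib. None of the 4 genes was called in edgeR's test of all 12 libraries, and none had an unadjusted p under 0.05, where 29.2% of all genes did. DESeq2 and limma voom called 0 of the 4 as well, while 9.30% of all genes were called by edgeR. The log2 fold changes were 0.32 for Timp1 (95% interval -0.61 to 1.26), 0.13 for Mmp2 (-0.38 to 0.64), 0.10 for Mmp14 (-0.35 to 0.55) and -1.26 for Mmp9 (-2.56 to 0.047). The intervals for Timp1 and Mmp9 allow differences of more than 1 on the log2 scale, so levels like those of saline lungs are not shown by these tests.

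Mmp9 averaged 0.682 ± 0.249 CPM under nintedanib against 1.65 ± 0.534 CPM in saline lungs (SD, n = 4 per group), and all 4 NINT lungs lay below all 4 saline lungs. It was 1 of the 4 genes without overlap between NINT and SAL, a share near that of all genes tested, 28.4% (17.8% with NINT lower). The edgeR adjusted p was 0.185 in the fit of all 12 libraries and 0.0197 when NINT and SAL were fitted without BLM, which leaves out the spread of the bleomycin lungs and gave a log2 fold change of -1.21. Timp1 was likewise called when BLM was left out of the fit, at 0.37 on the log2 scale (edgeR adjusted p = 0.0261). That fit called 4248 genes in all, where the fit of all 12 libraries called 1391. These calls are therefore not shown to be particular to Mmp9 and Timp1. The highest saline lung for Timp1, at 46.4 CPM, lay above 2 of the 4 NINT lungs.

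By average level the order of the groups for Timp1, Mmp2 and Mmp14 was BLM, NINT, SAL. For these genes NINT and SAL, neighbours in that order, were not called in the fit of all 12 libraries. The estimate of spread in that fit includes the BLM lungs. In the fit of NINT and SAL alone Timp1 was called, at 0.37 on the log2 scale (edgeR adjusted p = 0.0261). That fit called 4248 genes in all. Mmp2 and Mmp14 were not called there. For Mmp9 the order was BLM, SAL, NINT, and the first place of BLM rests on BLM replicate 3. Without that lung BLM averaged 1.39 CPM, below SAL at 1.65 CPM. In the fit of all 12 libraries neither BLM and SAL (edgeR adjusted p = 0.659) nor NINT and SAL (edgeR adjusted p = 0.185) were called apart. Each gene was also tested singly, by an exact permutation test of log2 CPM, two-sided, 4 lungs against 4, for which the smallest p is 0.0286. That value was reached by Timp1 and Mmp2 in BLM against SAL, by Mmp2 in NINT against BLM and by Mmp9 in NINT against SAL, and it became 0.0857 when adjusted over the 12 permutation tests. At least 7 of the 12 exact tests would have to reach the smallest p for any to pass after adjustment, so this design leaves little room to pass and the missing calls say nothing on the size of the differences. For Timp1 in NINT against BLM the exact permutation p was 0.0857, and for Mmp14 in BLM against SAL it was 0.0571.

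The balance between enzyme and inhibitor transcripts was described by the reads of each metalloproteinase per 100 Timp1 reads in the same library. This quantity does not depend on the scaling between libraries; it was not tested, and it is a ratio of reads and not of protein. For Mmp14 it was 142.5, 135, 139 and 137 in SAL replicates 1 to 4, the narrowest range of all groups, and 77.5, 156.5, 39.1 and 58.6 in BLM replicates 1 to 4. Thus 3 of the 4 bleomycin lungs had fewer Mmp14 reads per Timp1 read than any saline lung, and BLM replicate 2 had more. Timp1 was above the saline range in every BLM lung, which by itself lowers this ratio. The share of all genes with the same pattern was not computed, so it is not shown to be particular to Mmp14. In NINT replicates 1 to 4 Mmp14 reads per 100 Timp1 reads were 112, 112, 150.4 and 104. Except for replicate 3, these lay between the saline lungs and the 3 lower bleomycin lungs.

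**Figure D5:**
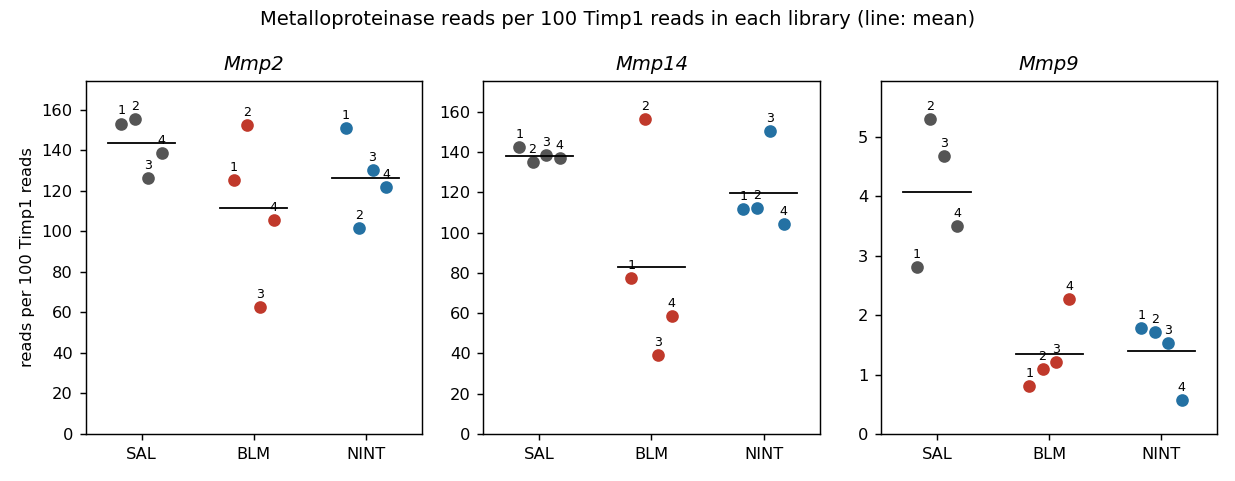
Reads of Mmp2, Mmp14 and Mmp9 per 100 Timp1 reads in the same library (vertical axis, from 0, a scale of its own per gene) for the SAL, BLM and NINT lungs. Points are lungs marked with their replicate number, lines are means of 4 lungs, and for Mmp9 the lowest saline lung, at 2.81, is above the highest bleomycin lung, at 2.27.

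For Mmp2 the reads per 100 Timp1 reads ranged from 126 to 156 in SAL, from 62.8 to 153 in BLM and from 102 to 151 in NINT, so that the groups overlapped. The lowest value belonged to BLM replicate 3, in which Timp1 stood at 8.37-fold and Mmp2 at 3.69-fold of the saline mean. For Mmp9 the saline lungs held 2.81 to 5.31 reads per 100 Timp1 reads, the bleomycin lungs 0.799 to 2.27 and the NINT lungs 0.579 to 1.78. All 8 lungs given bleomycin therefore had fewer Mmp9 reads per Timp1 read than any saline lung. The share of all genes for which the same holds was not computed, so this is not shown to be particular to Mmp9. Timp1 was above the saline range in every BLM lung, which by itself lowers such a ratio. The components differed between lungs: in BLM replicates 3 and 4 Mmp9 was above the saline range and Timp1 was further above it, whereas in BLM replicates 1 and 2 and in the NINT lungs Mmp9 was below the saline range. Between the enzymes, Mmp2 reads per 100 Mmp14 reads were 104 ± 10.2 in saline lungs, 150.0 ± 36.1 in bleomycin lungs and 107 ± 22.9 under nintedanib (SD, n = 4 per group), with BLM replicate 2, at 97.5, inside the saline range. Without BLM replicate 3 the bleomycin lungs averaged 146 ± 43.4 (SD, n = 3).

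Genes with a pattern like that of Timp1 or Mmp2 were sought by Pearson's r of log2 CPM over the 12 libraries, among 10338 other genes with a mean of at least 5 CPM. These correlations are descriptions that include the differences between groups and share the libraries' scaling. An r over 0.9 was common, found with Timp1 for 307 of these genes (2.97%) and with Mmp2 for 394 (3.81%). The most like Timp1 was ENSRNOG00000014603, with r = 0.986 and Spearman's rho = 0.937, and r = 0.883 without BLM replicates 3 and 4, the lungs farthest from the median of Timp1. Its own level was 5.56 ± 0.997 CPM in saline lungs, 17.5 ± 13.4 CPM in bleomycin lungs and 6.83 ± 1.23 CPM under nintedanib (SD, 4 lungs each). In BLM replicates 1 to 4 this gene stood at 8.04, 6.97, 35.9 and 19.0 CPM. The most like Mmp2 was ENSRNOG00000050539, with r = 0.987 and rho = 0.846, and r = 0.895 without the same 2 lungs.

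Timp1 and Mmp2 were close to each other by the same measure, with r = 0.967, which placed Mmp2 at rank 23 against the 10338 genes by likeness to Timp1. Without BLM replicates 3 and 4 their r was 0.768. Mmp14 followed Timp1 less closely, with r = 0.857 and rank 637, and r = 0.372 without BLM replicates 3 and 4. Without BLM replicates 3 and 2, the lungs farthest from the median of Mmp14, it was 0.702, so the value depends on the lungs left out. Mmp9 had r = 0.546 with Timp1, and without BLM replicates 3 and 4 this became -0.65, so the positive value rests on those 2 lungs.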

How the data were processed

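Libraries were made with QuantSeq FWD, which reads the 3′ ends of polyadenylated transcripts, per the labels' protocols. The authors deposited raw counts, whole numbers of reads per Ensembl gene identifier. FastQC, STAR and HTSeq and the build rn6 are named in the submitters' processing notes; versions, annotation and strand setting are not given in the sources used here, so overlapping genes could share reads. Columns were assigned to animals by name, and 7 empty unnamed columns were not used. The labels name no sequencing batch.

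Genes were kept by filterByExpr of edgeR 4.0.16 (minimum count 10, total 15) in R 4.3.3. Groups were compared by edgeR's quasi-likelihood test (glmQLFit, glmQLFTest) with TMM factors, fitted to all 12 libraries with 1 coefficient per group, and Benjamini-Hochberg adjustment over 14956 genes. Standard errors and 95% intervals were derived from its F statistic and log2 fold change. Log2 CPM used a prior count of 2. Alternatives were DESeq2 1.42.0, limma 3.58.1 (voom), other scalings, filters and sets of libraries, a replicate block, and each animal left out. On simulated counts for BLM against SAL (14956 genes, 200 changed), edgeR recovered 69% of genes changed 2-fold and 94% of those changed 4-fold. Of the calls of edgeR 5.78% were false, of those of DESeq2 20%, and of those of limma voom 5.33%. The simulation gave a gene the same spread in every group, unlike these lungs. It changed 200 genes, where 6098 were called in the data. These rates may therefore not hold for the lungs. Every pair of libraries within a group differed by more than sampling noise (lowest chi-square ratio 9.77 per degree of freedom).

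The 4 genes, the lists and the tests were chosen with earlier results of these data known. All 4 were named in every comparison, with the most like identifier of Timp1 and of Mmp2. Of the identifiers, 0 matched the RefSeq gene table, so the lists of other metalloproteinases, inhibitors, proteases, substrates, regulators and cell type markers were not analysed here. Proteins and the other promoters were not used here.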

Additional observations from a re-analysis of the deposited data

Results flagged for a closer look

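Within each group of 4 lungs, the CPM of each gene, the reads per 100 Timp1 reads and the total counts were searched for a lung far from the others of its group. Among 24 such sets, which share libraries, 3 had one, where chance gives about 1.2. SAL replicate 3 stood apart for Timp1, at 46.4 CPM against 37.4 to 38.8 CPM in the other saline lungs, and for Mmp14, at 64.3 CPM against 51.6 to 53.3 CPM. Both genes were high in the same lung, and their ratio in it, 139 Mmp14 reads per 100 Timp1 reads, was within the range of the other saline lungs. Without SAL replicate 3 the log2 fold change in BLM against SAL was 1.99 for Timp1 (edgeR adjusted p = 0.0142) and 0.75 for Mmp14 (edgeR adjusted p = 0.0284). NINT replicate 3 stood apart in Mmp14 reads per 100 Timp1 reads, at 150.4 against 104 to 112 in the other NINT lungs.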

How the results depend on the processing

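In BLM against SAL the calls of Timp1, Mmp2 and Mmp14 were kept in all 20 alternatives each, with log2 fold changes of 1.14 to 2.21, 0.90 to 1.40 and 0.42 to 0.85. Mmp9 was called in none of its 19 (-0.19 to 0.68 with 1 animal left out) and its direction reversed in limma voom (-0.10) and without BLM replicate 3 (-0.19). The cause was not tested. Requiring at least 10 counts in every library removed Mmp9.

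In NINT against BLM all 4 genes kept a negative sign. Mmp2 was called in 11 of 20 alternatives and lost in the fit of these groups alone (-1.05), which called 28 genes in all. With 1 animal left out Mmp2 ranged from -1.22 to -0.72. Timp1 was called in 4 of 20: with plain library totals (-1.57, edgeR adjusted p = 0.0493), without a filter (-1.56, edgeR adjusted p = 0.0455), in DESeq2 (-1.54) and without BLM replicate 2, within a range of -1.83 to -0.76 with 1 animal left out. Those 4 settings, in that order, called 999, 582, 1960 and 2857 genes in all, where the fit of all 12 libraries called 872. Mmp9 was called in 1 of 19 (-1.88 to -1.01 with 1 animal left out), and Mmp14 in 0 of 20, with -0.70 to -0.26. In NINT against SAL only the fit of these groups alone made calls, of Timp1 (0.37) and Mmp9 (-1.21). That fit called 4248 genes in all, in place of 1391.

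Among same-numbered lungs of different groups, 1 of 12 pairs had a correlation of deviations over 0.1 (range -0.17 to 0.20). For NINT with BLM it was 0.032, 0.20, 0.098 and 0.041 in replicates 1 to 4. Lungs with different numbers were not compared, so these values cannot settle whether the numbers pair the lungs. With a replicate block Mmp2 in NINT against BLM was -0.99 (edgeR adjusted p = 0.0509), and the number of genes called there was 370 in place of 872; no other call of the 4 genes changed.

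The number of genes called was 6098 in BLM against SAL (4880 to 7092 with 1 animal left out), 872 in NINT against BLM (17 to 2857) and 1391 in NINT against SAL (675 to 3344). Asking also for a change of at least 1 on the log2 scale, which can only remove genes, left 1898, 213 and 364. DESeq2 called 1960 and 2295 in the comparisons with NINT, against BLM and SAL, and fits of only the groups compared called 28 and 4248. With plain library totals for scaling, the genes called in NINT against SAL were 507 higher and 1088 lower, in place of 635 and 756.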
